A study of Homo sapiens with 12 samples.

Results

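Glycolytic enzyme transcripts were followed through RNA-seq, monosome and disome libraries of human cells exposed to girolline. The rule listed 9 genes, each by 1 Ensembl transcript whose coding length had to match the enzyme's protein. The transcripts of 8 genes met it, out of 100283 monosome rows with a coding length. These were TPI1, GAPDH, PGK1, PGAM1, ENO1, PKM, LDHA and LDHB, with coding regions of 250 to 532 codons. The row with the transcript ID listed for ALDOA, aldolase A, holds 140 codons, which is not the stated length. That row had 3 monosome counts at 10 µM and 9 at 1 µM, against 7 and 9 with DMSO, and ALDOA was not analysed further. Disome and RNA-seq tables use UCSC IDs, so each member's row there was found by aligning the coding rows of both tables in file order on coding length.

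The cells were wild type HEK293T Flp-In, an established line derived from human embryonic kidney and fitted with a recombination site for transgenes. Its identity was not checked against marker genes here. The cells were exposed for 2 h to 10 µM girolline, a compound first isolated from a sponge, to 1 µM girolline, or to DMSO, the solvent. Each of 3 kinds of library had 1 library at 10 µM, 1 at 1 µM and 2 with DMSO, 12 in all. RNA-seq of poly(A) RNA measures mRNA level, monosome footprints are the pieces of mRNA shielded from nuclease by single ribosomes, and disome footprints are the longer pieces shielded by neighbouring ribosomes that touch. In its title, the series ties girolline to eIF5A, a factor known for easing elongation where peptide bonds form slowly.

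Glycolysis splits glucose into triose phosphates and turns these into pyruvate in a chain of cytosolic reactions that yield ATP and NADH. Lactate dehydrogenase then interconverts pyruvate and lactate, which returns NADH to its oxidised form. The enzymes of the later steps are among the most abundant proteins of growing cells, and their mRNAs are long-lived and heavily translated in many cell types.

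Counts summed over all transcripts ran from 28424272 to 42194871 per RNA-seq library, from 21570489 to 38074691 per monosome library and from 3091715 to 5769026 per disome library. Neighbouring rows often hold identical counts, so reads seem to have been counted once per isoform, and such sums would exceed the number of reads. Disome values rest on the fewest counts. Levels below are CPM (counts scaled to a common library size) after TMM normalization, which sets a transcript relative to the rest of its library and hides a change shared by all. Counts of the DMSO libraries differed beyond sampling noise in each kind. The common dispersion corresponded to a coefficient of variation of 11.8% (RNA-seq), 3.85% (monosome) and 10.3% (disome). With 1 library per dose, the test assumes that this library varied like the DMSO pair, so it has no replicate check of its own. A transcript is said to be called, or to have risen or fallen, where the quasi-likelihood test of edgeR, adjusted by Benjamini-Hochberg over all tested rows of that kind, gave an FDR under 0.05.

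The members lie on 6 chromosomes, given here in RefSeq coordinates of GRCh38.p14. TPI1 (ENST00000396705.10, chr12:6867420-6870948), GAPDH (ENST00000229239.10, chr12:6534517-6538371) and LDHB (ENST00000350669.5, chr12:21635342-21657842) share chromosome 12. ENO1 (ENST00000234590.10) lies at chr1:8861000-8878686, PGAM1 (ENST00000334828.6) at chr10:97426191-97433444 and LDHA (ENST00000422447.8) at chr11:18394563-18408425. PKM (ENST00000335181.10) lies at chr15:72199029-72231591 and PGK1 (ENST00000373316.5) at chrX:78104248-78129295. The counts are of each transcript's coding region and carry no position within it. All 8 have relatives or processed pseudogenes of near-identical sequence, and how reads that match several places were counted is not given in the sources used here. Other 532-codon rows near that of PKM held 0.866 times its disome counts, and the files do not say which form of pyruvate kinase each row is.

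In untreated cells all 8 transcripts were among the most heavily read of their libraries. Levels per 100 counted codons were ranked over tested rows of 50 or more counted codons (52681 RNA-seq, 52500 monosome and 34181 disome rows). Each member lay above at least 97.7% of these RNA-seq rows, 97.9% of the monosome rows and 95.8% of the disome rows. GAPDH, which oxidises triose phosphate and yields NADH, led the mRNA levels at 404.2 ± 12 CPM per 100 codons (SD, n = 2). It was followed by ENO1 (256.3 ± 11.9), LDHB (202.2 ± 9.06), TPI1 (137.7 ± 8.25), PKM (105.1 ± 6.21), PGAM1 (72.47 ± 4.17), LDHA (59.94 ± 2.1) and PGK1 (43.57 ± 1.12) on the same scale. Each step in this order exceeded the SD of both neighbours. In monosome libraries GAPDH again led, at 579.6 ± 14.0 CPM per 100 codons, ahead of ENO1 at 426.5 ± 5.4 and LDHB at 262.7 ± 5.86. TPI1 and LDHA, at 145.4 ± 6.19 and 141.2 ± 1.36 in monosome libraries, could not be ordered beyond their spread. In disome libraries ENO1 (667.8 ± 52.4 CPM per 100 codons) and GAPDH (648.5 ± 46.5) could not be ordered either, and PGK1 (71.79 ± 7.09), PGAM1 (55.4 ± 4.56) and TPI1 (41.81 ± 2.26) were lowest.

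Untreated disome load was spread unevenly along the pathway. Unlike the levels above, the ratios here use CPM scaled by library totals alone, without TMM. Each divides libraries of 2 kinds with the same DMSO number. Ranks and medians of these ratios are over paired rows with a DMSO mean of at least 10 CPM in both kinds. The ratio of disome to monosome CPM was lowest for TPI1, triose-phosphate isomerase, at 0.336 ± 0.012 (SD, n = 2 DMSO libraries), below all but 2.23% of 8460 rows. PGAM1, the phosphoglycerate mutase that moves the phosphate group before enolase acts, was next at 0.562 ± 0.035, above 12.6% of rows. LDHA had 0.86 ± 0.021 and LDHB 1.01 ± 0.011, and the median of the ranked rows was 1.01. The ratio was 1.17 ± 0.085 for PGK1, 1.29 ± 0.094 for GAPDH, 1.48 ± 0.031 for PKM and 1.8 ± 0.12 for ENO1, enolase. Relative to mRNA, ENO1 had 3.0 times as much disome CPM, above 95.7% of 8976 rows, and TPI1 0.365 ± 0.053 times. The ratio of monosome to mRNA CPM ran from 1.08 ± 0.12 for TPI1 to 2.38 ± 0.083 for LDHA, beside an overall median of 1.01. Paired by DMSO number, TPI1 lay on both sides of that median, at 0.998 and 1.17, and the other 7 lay above it both times. The labels do not state such a pairing, and the SDs of these ratios depend on it. These ratios compare scaled shares of 2 kinds of library and are not numbers of ribosomes.

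**Figure D1:**
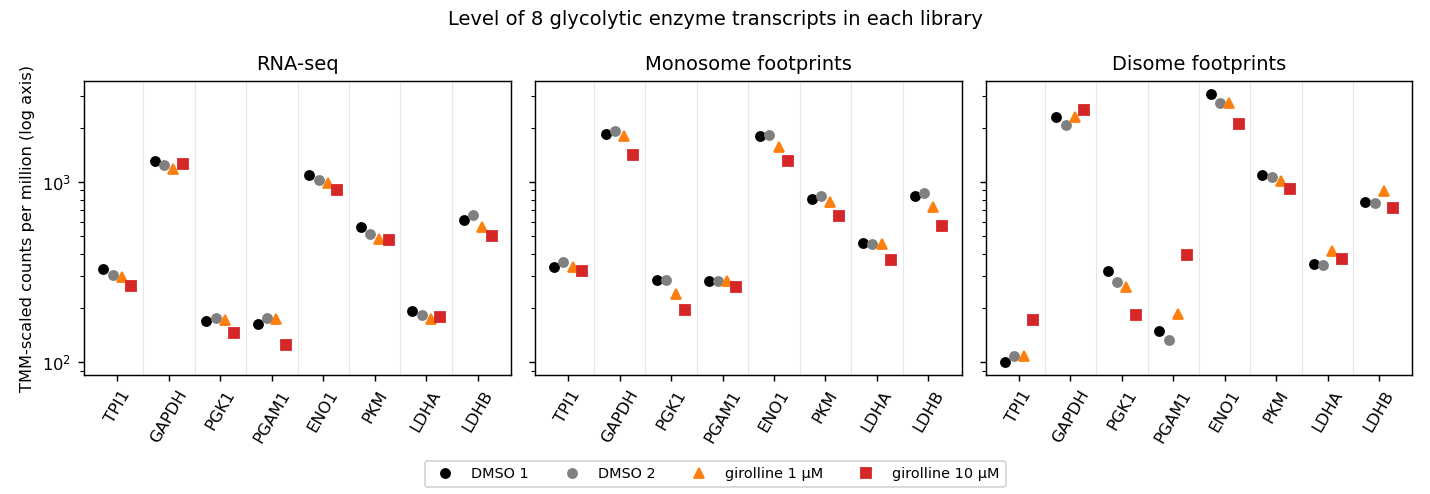
Level of each of the 8 transcripts in all 12 libraries, as TMM-scaled CPM on a log axis, with RNA-seq, monosome and disome libraries in separate panels and 1 point per library. In the disome panel PGAM1 stands at 393.0 at 10 µM and 186.0 at 1 µM, against 149.5 and 133.1 with DMSO, while ENO1 and PGK1 at 10 µM lie below both DMSO points.

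The RNA-seq comparison asked whether girolline altered the enzymes' mRNA levels within 2 h. Of the 8 mRNAs, 0 were called by edgeR at 10 µM, where 1.11% of all 56229 tested rows were, with 2 at an unadjusted p under 0.05 and 0 by DESeq2. The members' median log2 change was -0.24, beside -0.01 over all tested rows, and 7 of 8 lay below both DMSO libraries. GAPDH, at -0.02, lay between them. In bulk libraries fewer expressing cells and less RNA per cell cannot be told apart. At 1 µM 0 of 8 were called, against 0.0% of all tested rows, with 0 at an unadjusted p under 0.05 and 0 by DESeq2. The median was then -0.11. Between 10 and 1 µM 0 of 8 were called by edgeR as well, beside 0.427% of all tested rows, with 1 at an unadjusted p under 0.05 and 0 by DESeq2.

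PGAM1 had the lowest mRNA value at 10 µM. Its mRNA level was 163.4 and 177.2 CPM in the DMSO libraries, 173.4 CPM in the 1 µM library and 125.4 CPM in the 10 µM library. The 10 µM library thus stood below the other 3, which overlapped. The log2 change was -0.44 (SE 0.17), with unadjusted p = 0.0112 and adjusted p = 0.255 in edgeR's test. LDHB mRNA, for the heart-type subunit of lactate dehydrogenase, was 616.8 and 657.2 CPM in the DMSO libraries, 566.7 CPM in the 1 µM library and 504.5 CPM in the 10 µM library. Both girolline libraries lay below both DMSO libraries, at log2 -0.34 (SE 0.15) and -0.17 (SE 0.15) for 10 and 1 µM. These 2 mRNAs alone of the 8 had an unadjusted p under 0.05 at 10 µM, 0.0295 for LDHB, whose adjusted p was 0.386. PGAM1 was called lower in a fit of all 12 libraries together, with adjusted p = 0.0316 by edgeR. With 1 RNA-seq DMSO library left out of that fit, PGAM1 ran from -0.50 to -0.37 and LDHB from -0.38 to -0.28. Those fits hold no replicated RNA-seq group, so their p-values do not measure the spread of RNA-seq libraries. The other 6 mRNAs ranged from -0.26 for TPI1 and PGK1 to -0.02 for GAPDH at 10 µM.

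Monosome footprints fell on 6 of the 8 transcripts at 10 µM, where edgeR called 15.7% of all 55409 tested rows lower. The members' median log2 change was -0.38, beside 0.01 over all tested rows and 0.04 over the 13938 rows of the same range of lengths, of which 15.4% were called lower. The rows were matched on length but not on level, and each member lay above at least 97.9% of the monosome rows ranked by level above. By size of change, 9.74% of all tested rows lay below LDHB, the lowest member, and 39.5% below PGAM1, the highest. The lower quartile of all tested rows was -0.28. All 8 members lay below both DMSO libraries. Summed over the 8, they took 0.419% of monosome counts at 10 µM, against 0.522% and 0.536% with DMSO, and 0.485% at 1 µM.

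In pathway order, GAPDH was the first transcript called. It had 1857 and 1922 monosome CPM in the DMSO libraries, 1799 in the 1 µM library and 1418 in the 10 µM library. Its level at 10 µM was 0.75 times that with DMSO, a log2 change of -0.41 (SE 0.05, adjusted p = 2e-11 by edgeR). PGK1, phosphoglycerate kinase, which forms ATP from the product of GAPDH, had 287.8 and 286.6 monosome CPM in the DMSO libraries, 238.4 in the 1 µM library and 196.3 in the 10 µM library. The libraries of this transcript stood in the order of dose, with log2 changes of -0.55 (SE 0.06) at 10 µM and -0.27 (SE 0.06) at 1 µM. ENO1 showed the same order, with 1796 and 1829 monosome CPM in the DMSO libraries, 1561 in the 1 µM library and 1311 in the 10 µM library. Its log2 changes were -0.47 (SE 0.05) and -0.22 (SE 0.05) at 10 and 1 µM.

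PKM, pyruvate kinase, which makes pyruvate and ATP, had 805.1 and 832.6 monosome CPM in the DMSO libraries, 776.2 in the 1 µM library and 648.6 in the 10 µM library. Its log2 change at 10 µM was -0.34 (SE 0.05). LDHA, the muscle-type subunit of lactate dehydrogenase, had 459.2 and 453.0 monosome CPM in the DMSO libraries, 454.3 in the 1 µM library and 371.0 in the 10 µM library. Only the library at 10 µM stood apart for LDHA, at log2 -0.30 (SE 0.06). LDHB had 840.4 and 867.4 monosome CPM in the DMSO libraries, 731.9 in the 1 µM library and 569.4 in the 10 µM library. Its log2 change was -0.58 (SE 0.05, adjusted p = 8.28e-17 by edgeR), which could not be ordered against that of PGK1 within their SE.

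TPI1 and PGAM1 were not called among monosome footprints. TPI1 had 338.5 and 359.5 monosome CPM in the DMSO libraries, 340.1 in the 1 µM library and 319.5 in the 10 µM library, a log2 change of -0.13 at 10 µM with adjusted p = 0.0795 by edgeR. PGAM1 had 281.6 and 282.7 in the DMSO libraries, 282.4 in the 1 µM library and 262.1 in the 10 µM library, a log2 change of -0.11 with adjusted p = 0.16 by edgeR. At 1 µM PGK1, ENO1 and LDHB were called lower in monosome libraries, where 0.729% of all tested rows were, with adjusted p of 0.00349, 0.0054 and 0.0088 by edgeR. When the doses were set against each other, 6 of 8 were lower at 10 µM than at 1 µM, beside 6.34% of all tested rows, and TPI1 and PGAM1 were not called.

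The number of monosome calls depended on the fit. In a fit of all 12 libraries, which pools a coefficient of variation of 9.17%, edgeR called 5 of 8 lower at 10 µM and 0 at 1 µM. The share of all rows called in that fit is not given here, so these numbers cannot be set against it. Without either monosome DMSO library, further calls at 10 µM were lost. Such fits keep 1 monosome library per group and take their spread from the other kinds. The log2 changes at 10 µM stayed between -0.60 and -0.03 over the alternatives for all 8. Between 10 and 1 µM, all 6 monosome calls were lost in the fit of all 12 libraries, and that of PGK1 was lost with DESeq2 (adjusted p = 0.0535).

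**Figure D2:**
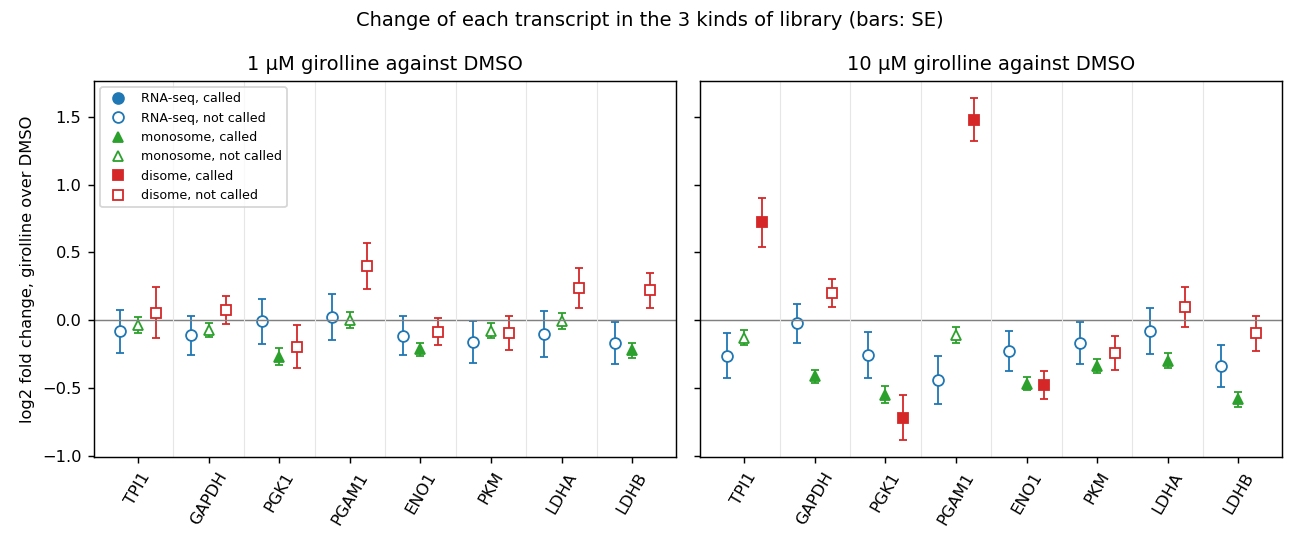
Log2 fold change of each transcript at 1 µM and 10 µM girolline over DMSO in RNA-seq, monosome and disome libraries, with bars of 1 SE and filled symbols where the edgeR test called the change. At 10 µM the filled disome symbols lie on both sides of 0, with PGAM1 and TPI1 above and PGK1 and ENO1 below, while the filled monosome symbols all lie below 0.

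Disome footprints moved in both directions at 10 µM. They rose on PGAM1 and TPI1 and fell on PGK1 and ENO1, so 2 of 8 were called higher and 2 lower, where edgeR called 20.8% of all 34606 tested rows higher and 14.9% lower. The members' median log2 change was 0.00, beside -0.02 over all tested rows. The shares called among members are thus near those of all rows. At 1 µM 0 of 8 were called by edgeR, where 7.07% of all tested rows were, with 1 of 8 at an unadjusted p under 0.05 and 0 by DESeq2.

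PGAM1 had the largest change of the 8. Its disome counts were 400 and 613 in the DMSO libraries, 738 in the 1 µM library and 1865 in the 10 µM library, which are 149.5, 133.1, 186.0 and 393.0 CPM in the same order. Both girolline libraries stood above both DMSO libraries, and the library at 10 µM far above that at 1 µM. The level at 10 µM was 2.79 times that with DMSO, a log2 change of 1.48 (SE 0.16) with adjusted p = 1.12e-18 by edgeR. This lies above 89.6% of all tested rows. Another row of 255 codons, the coding length of PGAM1, lies near PGK1 and had a log2 fold change of 1.4. Whether reads were shared between these rows was not tested. At 1 µM the log2 change was 0.40 (SE 0.17), with unadjusted p = 0.0161 and adjusted p = 0.135 in edgeR's test, and from 1 to 10 µM it was 1.08 (SE 0.19). The 1 µM value passed in the fit of all 12 libraries, at adjusted p = 0.0436 by edgeR. With 1 disome DMSO library left out, it ran from 0.36 to 0.54, in fits that hold no replicated disome group.

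TPI1 had 269 and 500 disome counts in the DMSO libraries, 432 in the 1 µM library and 820 in the 10 µM library, the fewest of the 8 before treatment. In scaled terms these were 100.5 and 108.5 CPM in the DMSO libraries, 108.9 in the 1 µM library and 172.8 in the 10 µM library. The library at 1 µM was level with the higher DMSO library, and that at 10 µM stood above all 3. The 10 µM library gave log2 0.72 (SE 0.18), with edgeR's adjusted p = 0.000354 and adjusted p = 0.0668 by DESeq2.

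The rows of PGK1 and ENO1 lost disome footprints at 10 µM. PGK1 had 321.0 and 279.1 disome CPM in the DMSO libraries, 261.6 in the 1 µM library and 182.1 in the 10 µM library. The 10 µM library gave log2 -0.72 (SE 0.16, adjusted p = 0.000104 by edgeR). ENO1, the transcript with most disome footprints of the 8 in untreated cells, had 3066 and 2744 disome CPM in the DMSO libraries, 2742 in the 1 µM library and 2088 in the 10 µM library. Its log2 change was -0.48 (SE 0.10), with adjusted p = 4.39e-05 by edgeR and adjusted p = 0.103 by DESeq2. For both transcripts the 10 µM library lay below the other 3. The row next to that of ENO1, uc057bzs.1 of 195 codons, had a log2 fold change of 1.01. Whether it belongs to the same gene is not stated.

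The other 4 transcripts were not called in disome libraries at 10 µM. GAPDH had 2289 and 2068 disome CPM in the DMSO libraries, 2296 in the 1 µM library and 2507 in the 10 µM library, a log2 change of 0.20 (SE 0.10) with adjusted p = 0.118 by edgeR. It passed as higher where rows under a mean of 10 CPM were left out (adjusted p = 0.0216 by edgeR). It also passed where 1 transcript was kept per block of 10 rows (adjusted p = 0.0304 by edgeR). With 1 disome DMSO library left out, its log2 change ran from 0.13 to 0.29. LDHA and LDHB had log2 changes of 0.10 and -0.10, and PKM had -0.24. LDHB was higher at 1 µM, with 895.0 CPM, than in the other 3 libraries, which had 718.0 CPM at 10 µM and 774.4 and 762.1 CPM with DMSO. ENO1 held the most disome counts of the 8 with DMSO and at 1 µM, and GAPDH did at 10 µM. Per 100 codons GAPDH stood at 746.2 and ENO1 at 480.0 disome CPM at 10 µM. Together the 8 took 0.605% of disome counts at 10 µM, against 0.705% and 0.671% with DMSO, and 0.668% at 1 µM.

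Set against each other, the doses gave the same 4 calls in disome libraries. PGAM1 and TPI1 were higher at 10 µM than at 1 µM, by log2 1.08 (SE 0.19) and 0.67 (SE 0.21), where 7.7% of all tested rows were higher. PGK1 and ENO1 were lower, by log2 -0.52 (SE 0.19) and -0.39 (SE 0.12), where 4.36% were lower. DESeq2 called PGAM1 alone. With 1 transcript kept per block, PGAM1 and TPI1 passed. PGK1 also lost its call where rows under a mean of 10 CPM were left out, with adjusted p = 0.0771 by edgeR.

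**Figure D3:**
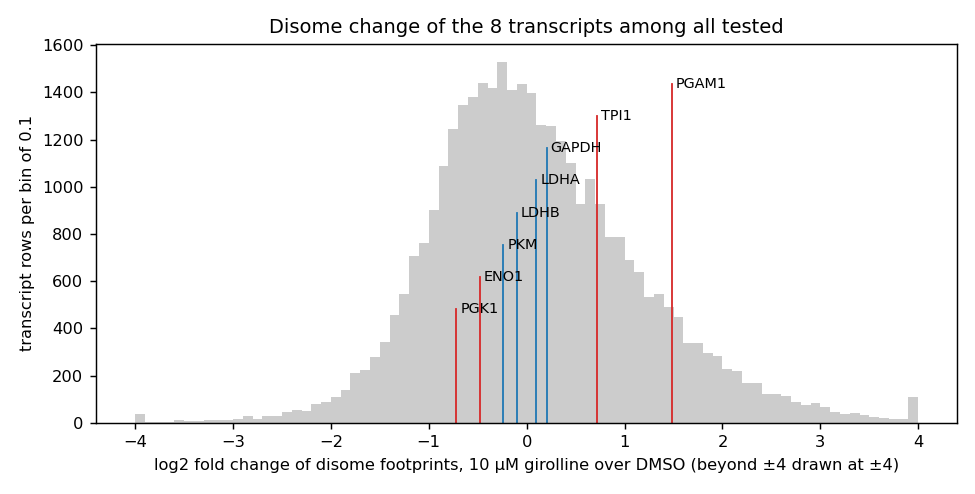
Distribution of the log2 change of disome footprints at 10 µM girolline over DMSO across all 34606 tested rows, in bins of 0.1, with a line at each of the 8 transcripts (red where called by edgeR, blue where not). PGAM1 at 1.48 stands in the upper shoulder of the distribution, with 10.4% of rows above it, and PGK1 at -0.72 lies in the lower part.

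Disome change was next set against mRNA change in 1 fit of the 8 disome and RNA-seq libraries. Relative to mRNA, PGAM1 and TPI1 were higher at 10 µM, 2 of 8, where 12.8% of 45174 rows tested were. For PGAM1 mRNA and disome values moved apart, and the ratio was 3.92 times that with DMSO, a log2 change of 1.97 (SE 0.23, adjusted p = 2.22e-15 by edgeR). TPI1's ratio changed by log2 1.03 (SE 0.23, adjusted p = 0.000125 by edgeR). None of the 8 was called lower, where 7.24% of all rows were. PGK1 had -0.41 (SE 0.23, adjusted p = 0.209 by edgeR). With 1 RNA-seq or disome DMSO library left out, it ran from -0.56 to -0.35. ENO1's ratio was at -0.20 (SE 0.19), and its mRNA value was also below that of DMSO. At 1 µM 0 of 8 were called by edgeR, where 1.73% of all rows were, with LDHB at an unadjusted p under 0.05 and 0 called by DESeq2. With 1 RNA-seq or disome DMSO library left out, the log2 change of LDHB at 1 µM ran from 0.37 to 0.46.

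The ratio of disome to monosome footprints asked whether adjoining ribosomes changed out of step with lone ones. At 10 µM this ratio rose on 5 of 8 transcripts, where 12.5% of 42192 rows tested rose, and 13.8% of the 10726 rows of the same range of lengths. The members' median log2 change was 0.48, beside 0.01 over all rows. The upper quartile of all rows was 0.71, and the rows were not matched on level. PGAM1 rose most, by log2 1.62 (SE 0.15), followed by TPI1 at 0.88 (SE 0.15), GAPDH at 0.65 (SE 0.12), LDHB at 0.52 (SE 0.13) and LDHA at 0.43 (SE 0.14). For PGAM1 and TPI1 the rise lay in disome footprints. For GAPDH, LDHA and LDHB monosome footprints fell, while the disome values, 0.20, 0.10 and -0.10 on the log2 scale, were not called.

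The remaining 3 transcripts were not called in this ratio. The log2 change of their disome over monosome ratio was 0.13 (SE 0.13) for PKM, 0.03 (SE 0.12) for ENO1 and -0.13 (SE 0.15) for PGK1, with adjusted p of 0.553, 0.926 and 0.617 by edgeR. For ENO1 and PGK1 both kinds of footprint fell, by log2 -0.47 in monosome and -0.48 in disome libraries for ENO1 and by -0.55 and -0.72 for PGK1. The calls of PGAM1, TPI1 and GAPDH passed in every alternative run. LDHA lost its call in DESeq2 (adjusted p = 0.209), with rows under a mean of 10 CPM left out, in the fit of all 12 libraries and without any 1 of the monosome and disome DMSO libraries. LDHB lost its call in DESeq2 (adjusted p = 0.0824) and without either monosome DMSO library.

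At 1 µM LDHB was the 1 member whose disome over monosome ratio was called, where 2.72% of all rows were higher. Its log2 change was 0.47 (SE 0.13, adjusted p = 0.026 by edgeR), with higher disome and lower monosome CPM than in either DMSO library. The call was lost in DESeq2 (adjusted p = 0.327), in the fit of all 12 libraries and without any 1 of the monosome and disome DMSO libraries. PGAM1 had a log2 change of 0.43 (SE 0.15) at 1 µM, with unadjusted p = 0.00656 and adjusted p = 0.121 by edgeR. All 8 values at 1 µM were above 0, with a median of 0.16 beside 0.00 over all rows.

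**Figure D4:**
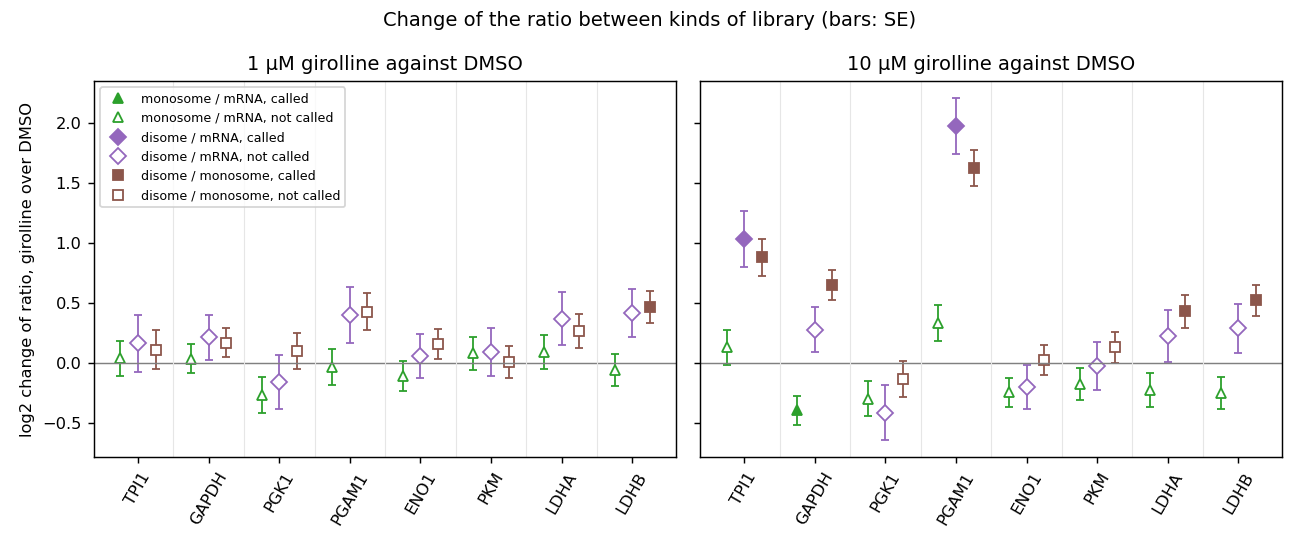
Log2 change of the monosome over mRNA, disome over mRNA and disome over monosome ratios of each transcript at 1 µM and 10 µM girolline over DMSO, with bars of 1 SE and filled symbols where the edgeR test called the change. At 10 µM the disome over monosome symbols of PGAM1, TPI1, GAPDH, LDHB and LDHA are filled and above 0, and those of PKM, ENO1 and PGK1 lie near 0.

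Translational efficiency is the ratio of monosome footprints to mRNA. At 10 µM 1 of 8 was called lower, where 4.0% of 48405 rows tested were, and 0 of 8 were called higher, where 5.39% were. The call was GAPDH, with a log2 change of -0.39 (SE 0.12) and adjusted p = 0.0428 by edgeR. The call of GAPDH was lost in DESeq2 (adjusted p = 0.0617), with the DMSO replicate number as a block (adjusted p = 0.109), under both stricter choices of rows, in the fit of all 12 libraries and without either monosome DMSO library. PGAM1 was at 0.33 (SE 0.15, adjusted p = 0.179 by edgeR), with a lower mRNA value and a monosome value near DMSO. With 1 RNA-seq or monosome DMSO library left out, its log2 change ran from 0.27 to 0.39. The other 6 ranged from -0.29 for PGK1 to 0.13 for TPI1, with PGK1, LDHB, ENO1 and LDHA each below -0.20. At 1 µM 0 of 8 were called, against 0.00207% of all rows, with 0 at an unadjusted p under 0.05 and 0 by DESeq2.

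LDHA and LDHB encode subunits of the same enzyme, and their values can be set side by side. At 10 µM the monosome log2 change was -0.30 (SE 0.06) for LDHA and -0.58 (SE 0.05) for LDHB, and at 1 µM it was -0.01 and -0.22. Their mRNA values at 10 µM were -0.08 and -0.34, and their disome over monosome ratios 0.43 and 0.52. The difference between these genes was not tested.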

How the data were processed

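The authors deposited 1 table of raw read counts per transcript for each of the 12 libraries, with no normalization. Per the submitters' processing notes, the build was hg38 and the tools included CASAVA 1.8 and STAR 2.7.0a, whose roles are not stated. The counting tool and annotation are not given in the sources used here. The deposited length column was 20 lower in RNA-seq than in disome tables, which share IDs, so 20 was added back. For monosome tables, which use other IDs, the 10 added back came from the rule. That the unit is codons was inferred from the values and the rule. Members were the 8 listed transcripts found with their stated length, and no other gene was named. The members and lists were chosen with earlier results of these data known. Other glycolysis genes and protein sequences were not analysed here.

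Monosome rows were paired with UCSC rows by the longest common subsequence of coding lengths in file order, which skips rows without a match. This paired 76301 rows, 76.1% of monosome and 81.2% of UCSC rows, and 90.8% of pairs were alike when run from the end. Pairs therefore rest on length and order, not on shared IDs. The LDHA row was paired through a row with identical counts, and PKM was paired with another 532-codon row from the end, which held 0.866 times as many disome counts. Rows with identical counts in a fit were merged. RNA-seq chi-square per degree of freedom between DMSO libraries was 6.47, monosome 1.69 and disome 2.11.

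The test was that of edgeR 4.0.16 under R 4.3.3 (TMM within each kind, filterByExpr, quasi-likelihood, FDR 0.05), with DESeq2 1.42.0 as the alternative. Each kind was fitted with 3 groups over 4 libraries (1 residual degree of freedom), and ratios as the interaction of kind and dose over 8 libraries (2 residual degrees of freedom). The procedure was run on simulated counts with dispersions taken from these fits. Such counts cannot check whether a lone dose library varies like the DMSO pair. Whether the DMSO pair stems from separate cultures is not stated in the labels, so a p-value here reflects only how far these samples varied, perhaps technically. Alternatives were DESeq2 size factors, no filter, rows with a mean of at least 10 CPM, 1 transcript per block of 10 rows, pairing from the end, a replicate block, all 12 libraries in 1 fit, and each DMSO library left out of that fit. A left-out DMSO library leaves its kind with 1 library per group, so the spread in that fit comes from the other kinds. Calls gained or lost there do not measure the spread of the kind that lost a library. Tables and figures used Python 3.11.15, pandas 2.3.3, scipy 1.17.1 and matplotlib 3.10.9.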

Additional observations from a re-analysis of the deposited data

How the results depend on the processing

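Of 1152 recomputed log2 values of single transcripts, 1056 kept their direction and side of the threshold, 57 lost and 13 gained a call, and 26 changed sign, none of them called in either setting. Of 144 recomputed counts of called transcripts, 112 stayed within 1.5 times and 32 did not. With DESeq2, calls of disome footprints numbered 2 at 10 µM (in place of 4) and 1 between doses (in place of 4), and those of the disome over monosome ratio 3 at 10 µM (in place of 5) and 0 at 1 µM (in place of 1). Keeping 1 transcript per block gave 2 disome calls between doses. The single translational efficiency call at 10 µM became 0 with DESeq2, with a mean of at least 10 CPM, with 1 transcript per block and with all 12 libraries. With all 12 libraries, 1 mRNA was called at 10 µM and 1 disome change at 1 µM (in place of 0 each), and monosome calls at 1 µM, monosome calls between doses and disome over monosome calls at 1 µM were 0 (in place of 3, 6 and 1). The shares of all rows called under these alternatives are not given here, so the counts cannot be set against them. The cause of these changes was not tested.

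With 1 DMSO library left out, its kind keeps 1 library per group, so the test takes its spread from the other kinds. Calls gained or lost there are part of the totals above, and their numbers are not given separately. Among them, monosome calls were lost at both doses. Disome log2 changes at 10 µM then ran from 1.40 to 1.58 for PGAM1 and 0.68 to 0.78 for TPI1. For PGK1 they ran from -0.81 to -0.60 and for ENO1 from -0.55 to -0.38.

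Sign changes were confined to values that were not called. The largest of these in the main fit was 0.131, for the disome over monosome ratio of PKM at 10 µM. The sign changes were, for monosome footprints at 1 µM, PGAM1 at -0.0049 with DESeq2 and with its size factors, and -0.0008 with all 12 libraries, and LDHA at 0.0129 with a mean of at least 10 CPM and 0.006 with 1 transcript per block. The disome over mRNA ratio of PKM at 10 µM was 0.0765 with pairing from the end. The disome over monosome ratio of ENO1 at 10 µM was -0.122 with a mean of at least 10 CPM and -0.0609 with 1 transcript per block, and that of PKM was -0.0176 at 10 µM and -0.071 at 1 µM with a mean of at least 10 CPM, and -0.0316 with 1 transcript per block and -0.0161 with pairing from the end at 1 µM. With 1 DMSO library left out, sign-changing values ran, for mRNA, from -0.047 to 0.0071 for GAPDH at 10 µM and from -0.0368 to 0.0221 for PGK1 and -0.0329 to 0.0911 for PGAM1 at 1 µM. For footprints at 1 µM they ran from -0.0819 to 0.005 for TPI1, -0.0033 to 0.0022 for PGAM1 and -0.0172 to 0.0024 for LDHA in monosome and from -0.117 to 0.0523 for ENO1 in disome libraries. Disome over mRNA ran from -0.0943 to 0.0396 for PKM at 10 µM and -0.0057 to 0.164 for ENO1 at 1 µM, disome over monosome from -0.0852 to 0.0841 for ENO1 at 10 µM and -0.0107 to 0.06 for PKM at 1 µM, and translational efficiency at 1 µM from -0.0174 to 0.0986 for TPI1 and -0.0919 to 0.032 for PGAM1.

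The DMSO replicate numbers do not pair the libraries by anything the labels state. Across 10437 rows the difference of DMSO 1 and DMSO 2 correlated at 0.051 between disome and monosome, 0.273 between disome and RNA-seq and -0.098 between monosome and RNA-seq libraries. With the replicate number as a block, the translational efficiency call of GAPDH was lost and 0 were called; the block left 2 and 0 calls for disome over mRNA and 5 and 1 for disome over monosome at 10 and 1 µM. Depth limits disome values most, with 269 counts in the lowest member library.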

Other observations

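The rows next to a member in the disome table are listed by ID only, and whether they belong to the same gene is not stated in the files. They were picked after their values were seen. The row after ENO1, uc057bzs.1 of 195 codons, had 1207 disome CPM at 10 µM and 904.6 at 1 µM, against 628.6 and 568.9 with DMSO, a log2 fold change of 1.01 at 10 µM, where ENO1 had -0.48. The row after LDHB, uc058lvo.1 of 233 codons, had 656.2 disome CPM at 10 µM and 732.7 at 1 µM, against 447.0 and 471.5 with DMSO, where LDHB had 718.0 and 895.0 against 774.4 and 762.1. The row after PKM, uc059kzo.1 of 367 codons, had 445.9 disome CPM at 10 µM, against 710.5 and 704.4 with DMSO, a log2 fold change of -0.67 where PKM had -0.24. Of the other rows near PKM, 2 were higher at 10 µM, with log2 fold changes of 1.24 for uc059kzq.1 of 70 codons and 0.23 for uc059kzt.1 of 485 codons. In RNA-seq the rows directly after ENO1, LDHB and PKM had log2 fold changes of -0.14, -0.26 and -0.14 at 10 µM. A row shortly before PGK1, uc004ecy.2, has 255 codons, the coding length of PGAM1. It had 201.9 disome CPM at 10 µM and 88.72 at 1 µM, against 82.97 and 70.33 with DMSO. Its log2 fold changes at 10 µM were 1.4 in disome and -0.57 in RNA-seq libraries, where PGAM1 had 1.48 and -0.44. Whether these rows share reads was not tested.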
